A study of Mus musculus with 6 samples.

Results

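The genes described here are 35 genes of the cell cycle and of DNA replication, chosen by symbol from a count table of 52459 gene symbols. All 35 were in the table and all 35 passed the filter on low counts, among 19565 genes tested. They comprise 13 genes of DNA replication and the S phase, 19 genes of mitosis and its preparation, and the 3 D-type cyclins. RNA was sequenced from whole brains of C57BL/6 mouse embryos at E14.5, in mid-gestation when neurons are being made. The 3 knockout libraries came from embryos labelled Mfsd7c-/- knock out, and the 3 wild-type libraries from embryos of the same strain and stage with no further treatment named. The labels give neither the design of the Mfsd7c allele, nor the litters, nor how many brains made up a sample, so the p-values reflect only how far these 6 samples scatter. The comparison asks whether transcripts of cell division differ between knockout and wild-type brains, and whether S phase genes differ from mitotic genes in this respect.

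In dividing cells, E2F transcription factors switch on the genes of DNA replication as a cell leaves G1, once D-type cyclins with CDK4 and CDK6 have inactivated the retinoblastoma proteins. The mitotic genes follow later, in G2 and M, under B-MYB, FOXM1 and NF-Y, and many of their promoters carry a CCAAT box and a CHR (cell cycle genes homology region) element. In the brain at this stage the dividing cells are mainly radial glia lining the ventricles and intermediate progenitors above them, while neurons have left the cycle. A whole brain mixes all of these, so fewer dividing cells and less RNA per dividing cell cannot be told apart in these bulk libraries.

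Libraries held 43784619 to 50549673 counts, and values are given as CPM, counts divided by the scaled library size. Counts of the 35 genes ran from 393, for Ccne1, to 33003 per library. The target Mfsd7c was lower in each knockout library, at 2.67 ± 0.113 CPM (SD, n = 3) against 5.20 ± 0.573 in wild-type, a log2 fold change of -0.96 (SE 0.147; adjusted p = 0.0271, edgeR quasi-likelihood test with Benjamini-Hochberg adjustment). That call was lost when any library other than wild-type replicate 1 was left out, with adjusted p of 0.109 to 0.189. Markers of radial glia summed to 2114 to 2263 CPM per library and those of neurons to 6863 to 8053 CPM, and both marker lists were abundant in every library. Some libraries stood apart in markers of other tissues. The summed level of 9 epidermal genes was 532 CPM in knockout replicate 1 and 455 in wild-type replicate 1, 99.4 in knockout replicate 3, and 26.3 to 37.1 in the other three. That of 17 caudal Hox genes was 168 CPM in wild-type replicate 2 and 43.7 in wild-type replicate 3, against 0.591 to 4.42 elsewhere. Wild-type replicate 2 was also the only library with abundant Xist, at 82198 counts against 6 to 27. Results are therefore also given without both replicates numbered 1, and without wild-type replicates 2 and 3.

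None of the 35 genes passed the test at a false discovery rate of 0.05, in either direction (edgeR quasi-likelihood test, Benjamini-Hochberg adjustment). Of all genes tested 0.659% passed, so a count of 0 among 35 genes is near that share. The adjusted p-values of the 35 genes ran from 0.483 for Pcna to 0.998. At an unadjusted p under 0.05 there were 2, Pcna with the lower and Ccnd1 with the higher knockout mean, a threshold reached by 8.09% of all genes, 3.46% with the knockout lower and 4.63% with it higher. DESeq2 also called 0 of the 35, beside 1.57% of all genes. The authors' deposited table, itself from DESeq2 on the same 6 libraries and so not a separate check, called 0 of the 35 as well. There 1.5% of 20564 genes with an adjusted p passed, and the lowest adjusted p among the 35 was 0.518. The 95% intervals of all 35 lay between 0.728-fold and 1.32-fold of the wild-type level. Those bounds are the outermost ends of 35 separate intervals, the lower from Tyms and the upper from Ccnd1, and are not a detection limit. The interval of each gene was narrower than the bounds. Each holds for 1 gene in the fit to all 6 libraries and is not adjusted over the 35. Choice of libraries can move a value outside it. Over the alternative fits the log2 fold change of Mki67 reached 0.41, above the upper end of its interval at 0.37. The result does not show that the levels were equal.

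The fitted differences were small and mostly below 0 over the 6 libraries. The log2 fold change, knockout minus wild-type, was below 0 for 28 of the 35 genes, or 80%, beside 52.6% of all genes tested. It was below 0 for 12 of 13 S phase genes and for 16 of 19 mitotic genes, and for 0 of the 3 D-type cyclins. The median was -0.073 for the S phase genes, -0.046 for the mitotic genes and 0.12 for the D-type cyclins, beside -0.0099 for all genes. S phase genes ranged from -0.19 to 0.0022 and mitotic genes from -0.21 to 0.088. The genes of a role moved together from library to library, so these counts are descriptions of shared movement and not independent observations.

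**Figure D1:**
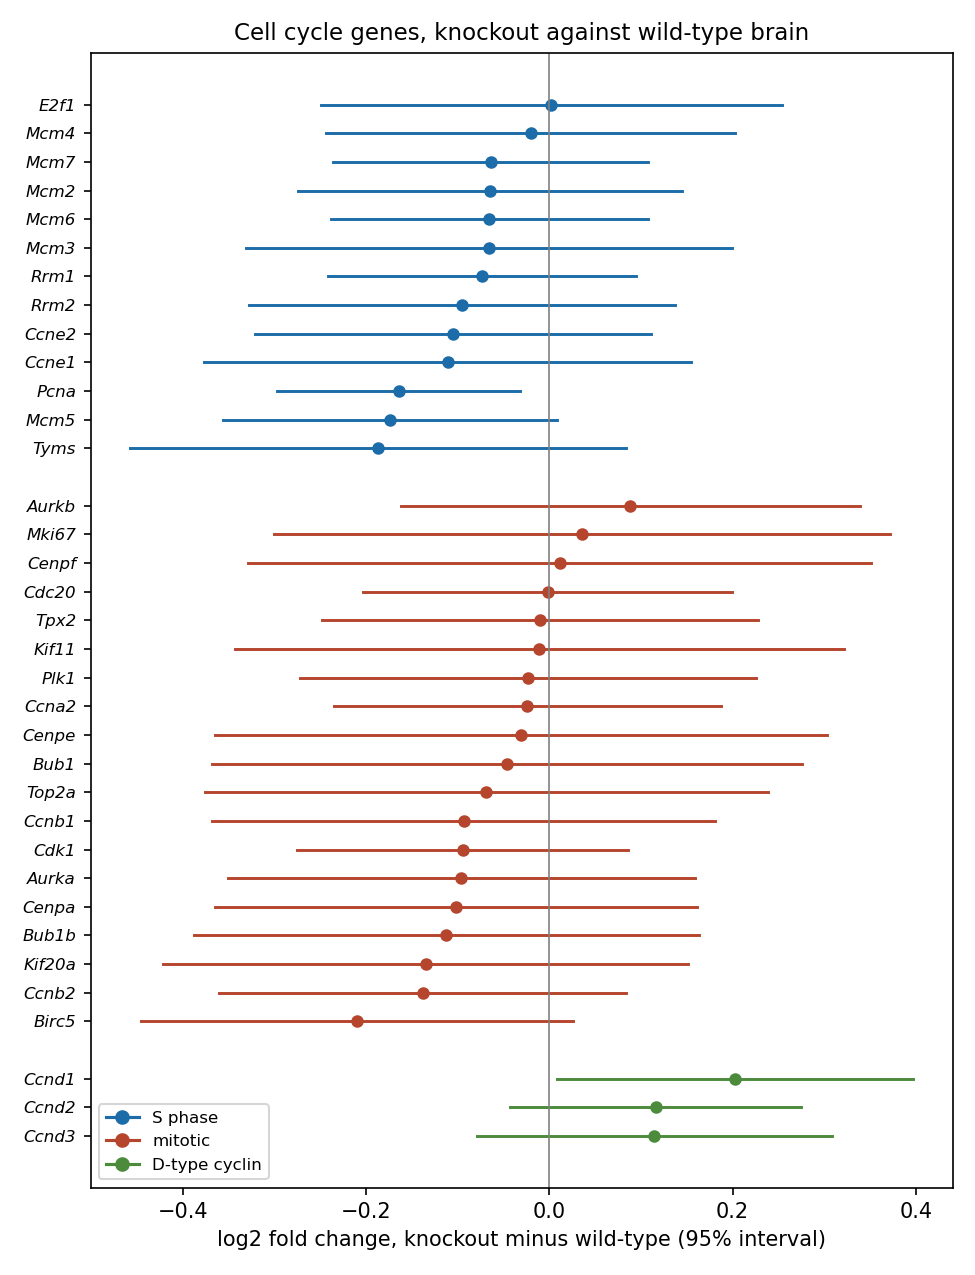
Log2 fold change (knockout minus wild-type, horizontal axis) of each of the 35 genes, with its 95% interval, grouped into S phase genes, mitotic genes and D-type cyclins. Points of 28 genes lie below 0, only the intervals of Pcna and Ccnd1 exclude 0, and none passed the adjusted threshold.

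Among the S phase genes, Pcna, the sliding clamp that holds DNA polymerase on its template, had the lowest p-value. In knockout replicates 1 to 3 it stood at 136, 141 and 126 CPM, compared with 148, 154 and 149 CPM in their wild-type counterparts. All knockout libraries lay below all wild-type libraries, at 134 ± 7.52 against 150.5 ± 3.23 CPM (SD, n = 3 each). The log2 fold change was -0.16 (SE 0.0582; 95% interval -0.30 to -0.032) and did not pass (adjusted p = 0.483, edgeR quasi-likelihood test with Benjamini-Hochberg adjustment).

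Mcm5 is 1 of 6 subunits of the MCM helicase, which is loaded on origins before S phase and unwinds DNA at the fork. It was at 63.6, 66.1 and 54.2 CPM in the knockout and at 66.8, 68.7 and 72.1 CPM in the wild-type libraries, again without overlap. The difference was -0.17 (SE 0.0800) on the log2 scale, with an adjusted p of 0.634 in the edgeR quasi-likelihood test. Pcna and Mcm5 were the only 2 of the 35 genes whose groups did not overlap, both with the knockout below, and 0 had the knockout above. Among all genes tested, 6.58% had every knockout library below every wild-type library and 7.84% above.

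The other 5 subunits overlapped between groups. Mcm2 was at 74.3, 77.1 and 65.3 CPM in knockout and at 66.9, 76.7 and 83.1 CPM in wild-type libraries, and Mcm3 at 62.7, 64.1 and 49.1 against 53.8, 63.7 and 66.5 CPM. Mcm4, Mcm6 and Mcm7 had log2 fold changes of -0.020, -0.066 and -0.064. Over the 6 libraries the 6 subunits all had a log2 fold change below 0, with a median of -0.065. Each was lowest in knockout replicate 3, as were 2975 of the 19565 genes tested, and highest in wild-type replicate 3, as were 3711. Without knockout replicate 3 only 2 of the 6 were below 0, with a median of 0.0098. There were 4 of 6 below 0 without wild-type replicate 3, and all 6 with any other single library left out.

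Tyms, thymidylate synthase, makes the thymidine nucleotide for DNA. It was at 27.2, 32.9 and 23.4 CPM in knockout and at 29.7, 32.8 and 32.5 CPM in wild-type libraries, and its groups overlapped through knockout replicate 2. Its log2 fold change of -0.19 had the widest interval of the S phase genes toward lower values, -0.46 to 0.083 (adjusted p = 0.749, edgeR quasi-likelihood test). The subunits of ribonucleotide reductase, which supplies deoxynucleotides, differed by -0.073 for Rrm1 and -0.096 for Rrm2. Ccne2, an E-type cyclin that drives entry into S phase with CDK2, was at 17.6, 20.0 and 16.3 CPM in knockout and at 18.9, 20.3 and 18.8 CPM in wild-type libraries, a log2 difference of -0.11 (SE 0.0946) with overlapping groups. Ccne1, its close relative and the least abundant of the 35 by counts, differed by -0.11 as well. E2f1, a transcription factor that activates S phase genes, differed by 0.0022, the only S phase gene not below 0.

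Among the mitotic genes, Birc5 had the lowest p-value. It encodes survivin, part of the chromosomal passenger complex that corrects attachments of chromosomes to the spindle. Birc5 was at 23.4, 23.2 and 19.9 CPM in knockout and at 22.8, 25.4 and 28.5 CPM in wild-type libraries, and the groups overlapped through wild-type replicate 1. Its log2 fold change was -0.21 (SE 0.103; 95% interval -0.45 to 0.026), with an adjusted p of 0.661 in the edgeR quasi-likelihood test. Aurkb, the kinase of the same complex, went the other way at 0.088, the highest of the mitotic genes.

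Ccnb2, a B-type cyclin, was at 26.8, 26.2 and 22.5 CPM in knockout and at 24.7, 29.1 and 29.3 CPM in wild-type libraries. Its partner kinase Cdk1, which drives entry into mitosis, was at 48.9, 54.1 and 45.5 against 50.0, 55.5 and 53.2 CPM. The log2 fold changes were -0.14 (SE 0.0974) for Ccnb2 and -0.095 (SE 0.0791) for Cdk1, and in both genes the groups overlapped. Ccnb1, the other B-type cyclin among the genes, differed by -0.094, and Ccna2, the A-type cyclin of S phase and G2, by -0.024. Kif20a, a kinesin of the midzone of the dividing spindle, was at 28.0, 30.8 and 24.8 CPM in knockout and at 25.1, 33.7 and 33.0 CPM in wild-type libraries, with a log2 fold change of -0.14 (SE 0.126). Adjusted p-values of Ccnb2, Cdk1 and Kif20a were 0.774, 0.817 and 0.833 in the edgeR quasi-likelihood test.

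The genes most used as markers of proliferation showed the library pattern plainly. Mki67, which coats mitotic chromosomes, was at 249.7, 289 and 231 CPM in knockout and at 194, 273 and 283 CPM in wild-type libraries. Top2a, the topoisomerase that untangles replicated chromosomes, was at 256, 299.5 and 237 CPM in knockout and at 222, 306 and 304 CPM in wild-type libraries. In both genes wild-type replicate 1 was lowest and knockout replicate 3 next, so the range within the wild-type group was wider than the difference between groups. The log2 fold change was 0.036 for Mki67 (95% interval -0.30 to 0.37) and -0.069 for Top2a (SE 0.134).

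The same order held for Cenpe, a motor of the kinetochore, which couples chromosomes to the spindle. It was at 52.8, 61.5 and 50.1 CPM in knockout and at 43.2, 61.3 and 63.3 CPM in wild-type libraries. Cenpf differed by 0.011 on the log2 scale, and Cenpa, the histone H3 variant of centromeres, by -0.10. The spindle checkpoint genes Bub1 and Bub1b differed by -0.046 and -0.11, and Cdc20, an activator of the anaphase-promoting complex, by -0.0020. The spindle genes Kif11, Tpx2, Aurka and Plk1 had log2 fold changes of -0.011, -0.010, -0.096 and -0.023. None of these 10 genes had an unadjusted p under 0.05.

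**Figure D2:**
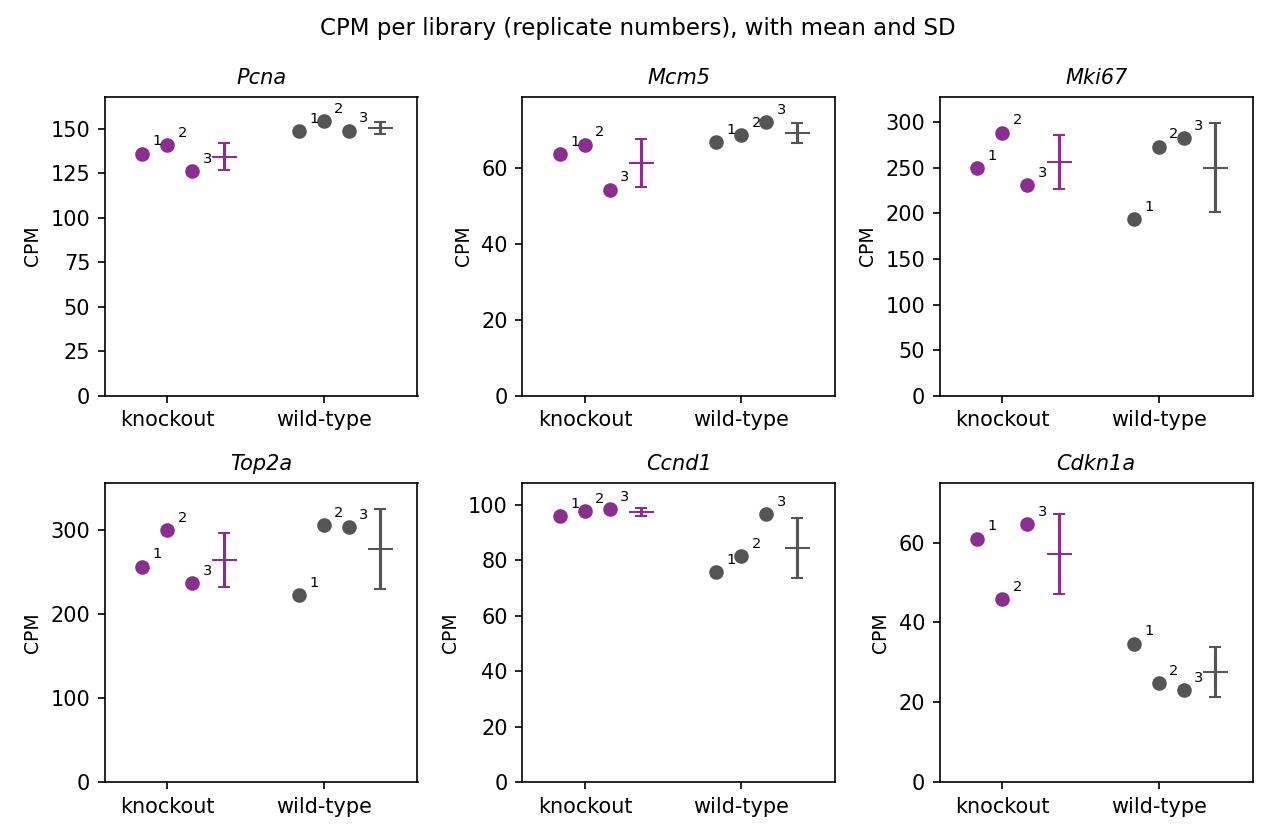
CPM of Pcna, Mcm5, Mki67, Top2a, Ccnd1 and Cdkn1a in each of the 3 knockout and 3 wild-type libraries (points), with group mean and SD. Pcna and Mcm5 do not overlap between groups, Mki67 and Top2a have wild-type replicate 1 as their lowest library, and Cdkn1a is higher in all 3 knockout libraries.

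D-type cyclins link growth signals to the G1 phase. Ccnd1 was at 95.9, 97.9 and 98.5 CPM in knockout and at 75.8, 81.5 and 96.8 CPM in wild-type libraries. The groups overlapped, since wild-type replicate 3 was above knockout replicate 1. Its log2 fold change was 0.20 (SE 0.0853; 95% interval 0.0079 to 0.40), with an adjusted p of 0.589 in the edgeR quasi-likelihood test. Ccnd2, the D-type cyclin with the most counts, was at 668, 651 and 584 CPM in knockout and at 581, 577 and 597 CPM in wild-type libraries. Ccnd3 was at 49.0, 53.8 and 50.4 against 52.9, 43.9 and 44.7 CPM. Their log2 fold changes were 0.12 and 0.11, with adjusted p-values of 0.728 and 0.789 in the same test, and both overlapped between groups. Of the 3 cyclins, 0 were lowest in knockout replicate 3, and 1, Ccnd1, was lowest in wild-type replicate 1. All 13 S phase genes were lowest in knockout replicate 3, and each of the 19 mitotic genes in 1 of these libraries.

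Across the 6 libraries, the S phase and mitotic genes moved mainly with the library. All 13 S phase genes were lowest in knockout replicate 3. All 19 mitotic genes were lowest in knockout replicate 3, with 8, or in wild-type replicate 1, with 11. Within the knockout group replicate 3 was the lowest library for all 32 of these genes. Within the wild-type group replicate 1 was lowest for 19 of 19 mitotic and 11 of 13 S phase genes. Among all 19565 genes tested, knockout replicate 3 was the lowest library for 2975 and wild-type replicate 1 for 4053. Within their own groups they were lowest for 5821 and 7945 of all genes. The highest library was at a median of 1.27 times the lowest for S phase genes, 1.36 times for mitotic genes and 1.33 times for all genes tested.

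The mean of log2 CPM over each role, after centring each gene on its own mean over the 6 libraries, puts the libraries in order. For S phase genes it was 0.0064, 0.073 and -0.22 in knockout replicates 1 to 3 and -0.040, 0.067 and 0.12 in wild-type replicates 1 to 3. For mitotic genes it was -0.011, 0.11 and -0.18 against -0.20, 0.11 and 0.17. Wild-type replicate 1 was thus low in mitotic genes and close to the average in S phase genes, whereas knockout replicate 3 was low in both. The S phase mean minus the mitotic mean was 0.16 in wild-type replicate 1 and between -0.050 and 0.017 in the other 5 libraries. By group it was -0.022 ± 0.034 in knockout and 0.022 ± 0.12 in wild-type libraries (SD, n = 3 each), a difference smaller than the spread within the wild-type group.

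**Figure D3:**
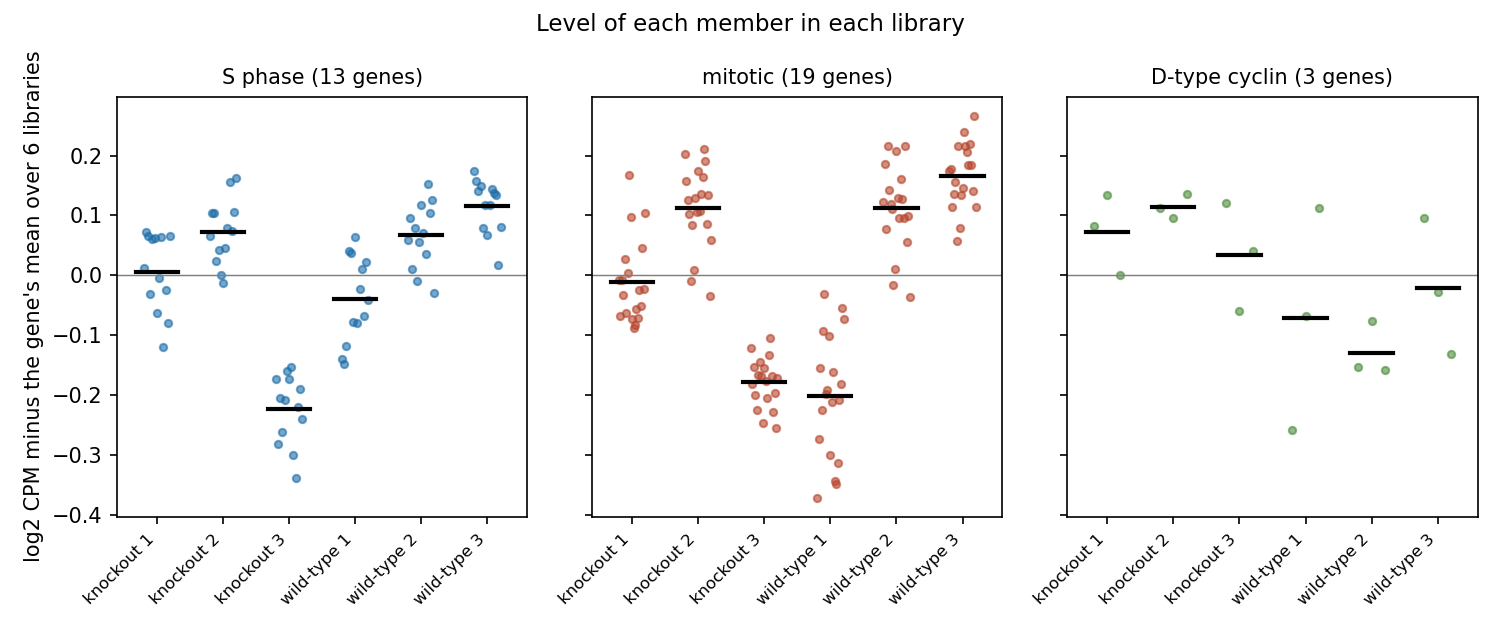
Log2 CPM of each gene minus its own mean over the 6 libraries (vertical axis), by library, for S phase genes, mitotic genes and D-type cyclins in 3 panels. Black bars are means over the genes, at -0.22 for S phase genes in knockout replicate 3 and at -0.20 for mitotic genes in wild-type replicate 1.

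The direction of the mitotic genes depended on which libraries were included. Without wild-type replicate 1 the median log2 fold change was -0.13 for S phase and -0.18 for mitotic genes. In that fit 9 of the 35 genes had an unadjusted p under 0.05 with the knockout lower, 7 of them mitotic, beside 9.49% of all genes, and 0 passed after adjustment, beside 1.94%. Without both replicates numbered 1, which had the high epidermal levels, the medians were -0.16 for both roles and 0 of the 35 passed, beside 2.31% of all genes. Without wild-type replicates 2 and 3, which had the high caudal Hox levels, the medians were 0.020 for S phase and 0.17 for mitotic genes. There 4 mitotic genes had an unadjusted p under 0.05 with the knockout higher, beside 4.58% of all genes, and 0 of the 35 passed, beside 0.0968%. That fit compares the knockout group with wild-type replicate 1 alone and assumes that this library varies like the knockout libraries. Without knockout replicate 3 the medians were -0.0028 for S phase and 0.022 for mitotic genes, and only 7 of 13 and 8 of 19 genes were below 0. Leaving out wild-type replicate 2 gave a mitotic median of -0.0054 (10 of 19 below 0) and an S phase median of -0.069. With replicate 3 of that group left out instead, these were 0.013 (8 of 19 below 0) and -0.042.

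Markers of other cells also differed between these libraries. Wild-type replicate 1 had the lowest summed level of radial glia markers (2114 CPM) and of the 8 intermediate progenitor markers (447 CPM, against 486 to 567 elsewhere), and the highest of the 10 neuron markers (8053 CPM). Knockout replicate 3 had 2225 CPM of radial glia and 7435 of neuron markers, both within the range of the other libraries. Its 486 CPM of intermediate progenitor markers was the next lowest after wild-type replicate 1. Knockout replicates 1 and 3 had the highest levels of 9 erythroid genes, at 3472 and 3487 CPM, against 2405 in wild-type replicate 1 and 972 to 1485 in the other three. None of the radial glia, intermediate progenitor, neuron or erythroid genes listed was at 0 in all libraries. The test passed 0 of them, beside 0.659% of all genes tested. With the same share beside it, 3 of the 8 endothelial genes passed, Pecam1 and Emcn with the knockout higher and Cldn5 with it lower. The summed level of the 8 endothelial genes was 319 to 350 CPM in knockout and 260 to 316 CPM in wild-type libraries, lowest in wild-type replicate 1. The part of cell makeup in the library pattern was not tested.

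**Figure D4:**
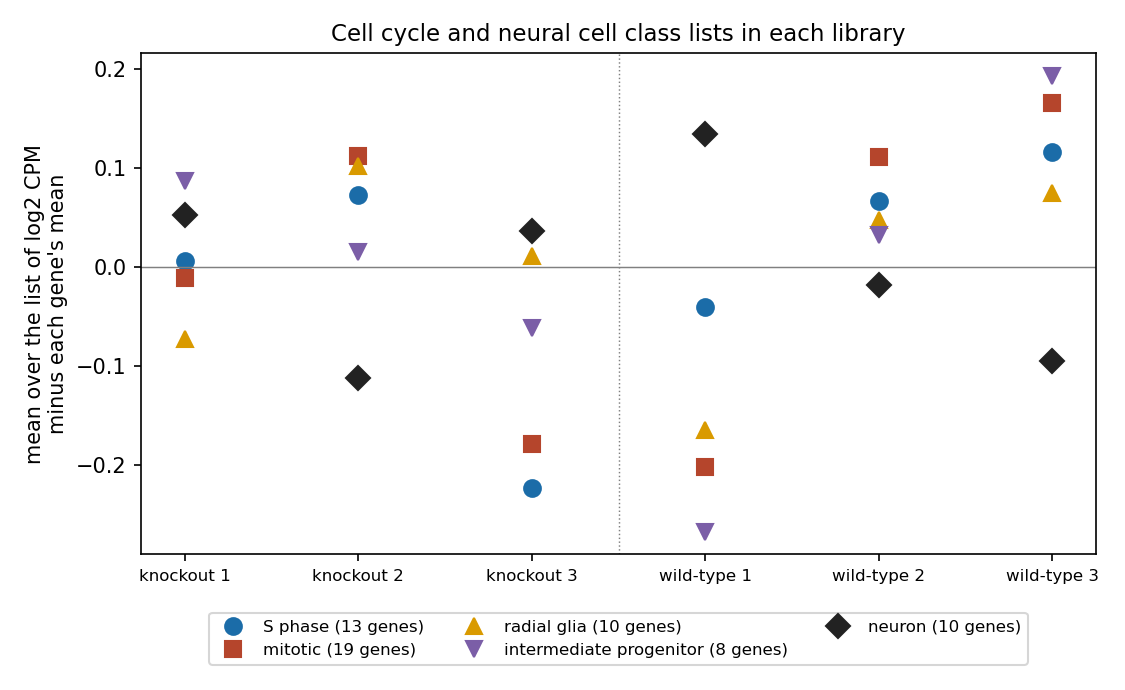
Mean of centred log2 CPM per library (vertical axis) for S phase genes, mitotic genes and markers of radial glia, intermediate progenitors and neurons. Wild-type replicate 1 is at -0.20 for mitotic genes, -0.16 for radial glia, -0.27 for intermediate progenitors and 0.13 for neurons. Knockout replicate 3 is at -0.18 for mitotic genes, 0.012 for radial glia, -0.061 for intermediate progenitors and 0.036 for neurons. For S phase genes these libraries are at -0.040 and -0.22.

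S phase and mitotic genes are known to be switched on through different promoter elements, and the sequences are shown as context for the members, since no link between these elements and the library pattern was tested. RefSeq promoters of build GRCm38.p6 were matched for 27 of the 35 genes, and the 250 bases before the start site were searched on both strands for exact words. The words were TTTCCCGC, TTTCGCGC, TTTGCCGC and TTTGGCGC for E2F, TTTGAA for the CHR, and CCAAT. Mcm4, Ccne2, Ccna2, Aurkb, Kif20a, Tpx2, Ccnd1 and Ccnd2 were not matched. Shown are the promoters of an S phase pair with E2F words and a mitotic pair with a CHR word, each as 170 bases from 5′ to 3′ on the strand of the gene, with every matched word in capitals on whichever strand it reads (a CCAAT on the opposite strand appears as ATTGG). In Mcm5 and Mcm6 an E2F word overlaps another on the opposite strand, so the capitals run together.
Mcm5 (chr8:75109339-75109508, plus strand): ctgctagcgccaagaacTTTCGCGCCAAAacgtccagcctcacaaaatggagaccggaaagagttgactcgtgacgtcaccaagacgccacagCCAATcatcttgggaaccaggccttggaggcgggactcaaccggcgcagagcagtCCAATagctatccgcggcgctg
Mcm6 (chr1:128359706-128359875, minus strand): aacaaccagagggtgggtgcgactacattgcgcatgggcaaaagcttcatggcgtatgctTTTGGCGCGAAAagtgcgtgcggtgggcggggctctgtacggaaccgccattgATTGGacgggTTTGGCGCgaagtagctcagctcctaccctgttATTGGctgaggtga
Ccnb2 (chr9:70421555-70421724, minus strand): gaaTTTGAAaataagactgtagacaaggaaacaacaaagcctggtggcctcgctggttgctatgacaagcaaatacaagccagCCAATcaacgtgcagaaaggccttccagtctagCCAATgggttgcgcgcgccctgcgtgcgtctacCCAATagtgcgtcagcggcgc
Cdk1 (chr10:69352939-69353108, minus strand): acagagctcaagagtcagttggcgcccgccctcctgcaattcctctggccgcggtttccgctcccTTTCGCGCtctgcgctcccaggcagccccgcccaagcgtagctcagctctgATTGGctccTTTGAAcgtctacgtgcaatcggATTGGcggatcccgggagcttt
Cdk1 held both an E2F and a CHR word, and its stretch ends 26 bases before the RefSeq start, while the other stretches end at the start.

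Over the matched genes, an E2F word lay in 3 of 11 S phase promoters (Mcm5, Mcm6 and Mcm7) and in 1 of 15 mitotic promoters (Cdk1), beside 2.16% of 27025 promoters in all. The CHR word lay in 1 of 11 S phase promoters (Mcm2) and in 6 of 15 mitotic promoters, those of Mki67, Top2a, Ccnb2, Cdk1, Kif11 and Cdc20, beside 18.3% of all. CCAAT lay in 8 of 11 and 14 of 15, beside 37.5% of all. Of the genes with the CHR word, Mki67, Top2a and Kif11 were lowest in wild-type replicate 1. Mcm2, Ccnb2, Cdk1 and Cdc20 were lowest in knockout replicate 3. In each of these genes wild-type replicate 1 was the lowest wild-type library. That was not particular to the CHR word, since it held for 19 of 19 mitotic and 11 of 13 S phase genes. A match is a description of letters and not a measured binding site, and exact words miss sites that differ by a base.

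Per length, as RPKM over GENCODE M21 exons (CPM divided by exon length in kilobases, mean ± SD over 6 libraries), the level was highest for Ccnd2, at 64.8 ± 4.19, then Pcna at 59.3 ± 4.28. Top2a followed at 30.0 ± 4.09, Mcm7 at 29.5 ± 2.06, Cdc20 at 26.4 and Mki67 at 25.2, and the lowest were Tyms at 4.89 and Ccne1 at 3.60 ± 0.321. Of 34 neighbouring pairs in that order only Pcna and Top2a had library ranges that did not overlap, so the finer order is not resolved. Exons of 9 of the 35 genes (Ccnd2, Mcm7, Cdc20, Ccnd1, Ccna2, Plk1, Kif20a, Ccnd3 and Ccne2) overlap exons on the opposite strand, and the sources used here do not give the counting strand, which leaves their levels uncertain. Ccnb2 is uncertain as well, since its pseudogene Ccnb2-ps had 570 to 686 counts per library beside 1080 to 1471 for Ccnb2.

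Other genes of the same processes, listed by function, were examined alongside. Of 47 further replication genes 0 passed the edgeR quasi-likelihood test, beside 0.659% of all genes. An unadjusted p under 0.05 was found in 2, both lower, beside 3.46% of all genes. The log2 fold change of these replication genes was below 0 for 41 of 47, beside 52.6% of all genes, with a median of -0.088. Without knockout replicate 3 it was below 0 for 29 of 47, with a median of -0.017. Over the 6 libraries 7 had all knockout libraries below all wild-type libraries (Orc1, Orc6, Gins1, Prim1, Rfc2, Rpa1 and Rpa3), with 0 above, beside 6.58% of all genes below and 7.84% above. Orc1, the largest subunit of the origin recognition complex, was at 2.92, 3.53 and 3.15 CPM in knockout and at 4.08, 4.24 and 4.25 CPM in wild-type libraries, a log2 fold change of -0.39 (SE 0.143) with an adjusted p of 0.513 in that test. Gins1, a subunit of the replicative helicase, was at 11.9, 14.4 and 12.7 against 16.3, 15.5 and 15.2 CPM, a log2 fold change of -0.27 (SE 0.0979). Both genes were separated between groups without passing. Rpa3, of the complex that coats single-stranded DNA, differed by -0.15 (SE 0.0671).

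Of 52 further mitotic genes 0 passed, beside 0.659% of all genes, and 1 had an unadjusted p under 0.05, beside 8.09%. The log2 fold change was below 0 for 35 of the 52, beside 52.6% of all genes, with a median of -0.036. That majority was lost without knockout replicate 3 (22 of 52, median 0.032), without wild-type replicate 2 (25 of 52, median 0.0021) and without wild-type replicate 3 (19 of 52, median 0.031). Only 2 had the knockout below without overlap (Bub3 and Cks2), beside 6.58% of all genes. The lowest p-values belonged to Cks2, a small partner of cyclin-dependent kinases, and to Spc24 and Ndc80, subunits of the kinetochore complex that binds microtubules, with log2 fold changes of -0.17, -0.21 and -0.22. DESeq2 and the authors' deposited table called 0 of the further replication and mitotic genes, beside 1.57% and 1.5% of all genes.

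The regulators of the cycle had a log2 fold change below 0 for 9 of 21, with a median of 0.019. Of the 21 tested, 0 passed the edgeR quasi-likelihood test, beside 0.659% of all genes. An unadjusted p under 0.05 was found in 4, all with the knockout higher (Cdkn1a, Rb1, Cdk6 and Cdkn1b), beside 4.63% of all genes. These 4 and Rbl2 had every knockout library above every wild-type library, beside 7.84% of all genes. Cdkn1a, which encodes the CDK inhibitor p21, was at 61.0, 45.9 and 64.6 CPM in knockout and at 34.6, 24.7 and 23.0 CPM in wild-type libraries. It was at 57.2 ± 9.96 against 27.4 ± 6.27 CPM (SD, n = 3 each), a log2 fold change of 1.06 (SE 0.181; 95% interval 0.64 to 1.48) that missed the threshold at an adjusted p of 0.0615. DESeq2 called it at an adjusted p of 3.4e-08, and the authors' deposited table, the same kind of test on the same libraries, at 3.5e-08. The edgeR call was reached without knockout replicate 2, without wild-type replicate 1 and without both replicates numbered 1, at adjusted p of 0.0334, 0.0135 and 0.0299. With any other single library left out it was not, with adjusted p of 0.226 to 0.327.

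The log2 fold change of Cdkn1a was thus above that of every one of the 35 genes, among which Ccnd1 was highest at 0.20. Knockout replicates 1 and 3, where it was highest, were also the libraries with the most erythroid signal, and the part of that signal in the difference was not tested. Rb1, the retinoblastoma protein that restrains E2F, was at 87.4, 85.1 and 82.2 CPM in knockout and at 76.8, 77.7 and 77.9 CPM in wild-type libraries. Its log2 fold change was 0.13 (SE 0.0495; adjusted p = 0.523 in the edgeR quasi-likelihood test). Cdk6, a kinase partner of D-type cyclins, differed by 0.22 (SE 0.0857), and Cdkn1b, the CDK inhibitor p27, by 0.19, and neither passed.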

How the data were processed

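Whole-brain RNA of 3 knockout and 3 wild-type samples was analysed, grouped by the sample titles. The deposited table holds whole-number counts per gene symbol, not normalized, as its values show. STAR 2.5.2a, featureCounts, DESeq2 1.12.4 and the builds mm10 and hg19 are named in the submitters' processing notes, with no role given for either build. Not given in the sources used here are the annotation release, strand setting and handling of multi-mapped reads. The authors' second deposited table holds a mean of normalized signal, a log2 fold change, a Wald score and p-values with adjusted p-values, per the file headers. Only its adjusted p-values are printed.

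Genes were kept by filterByExpr, scaled by TMM and tested with the robust quasi-likelihood test of edgeR 4.0.16 in R 4.3.3, knockout against wild-type, over all 19565 genes, with Benjamini-Hochberg adjustment at 0.05. The common biological coefficient of variation was 15.3%. CPM use TMM-scaled library sizes, and centred values use log2 CPM with a prior count of 2. The scripts were tested on simulated data. Named in full are the 4 lowest p-values of each role and, of each further list, the 3 lowest. Mki67, Top2a, Cenpe, Mcm2 and Mcm3 were given in full after their values were seen, as were the genes without overlap in the further lists and Cdkn1b. The genes and lists were chosen with earlier results of these data known. The 14 alternatives were DESeq2 size factors, other low-count filters, DESeq2 1.42.0, each library left out, pairs of libraries left out, a replicate block and a sex term. The sex term marks wild-type replicate 2 alone, the only library with abundant Xist. It therefore nearly repeats the fit without that library (37 and 36 genes called) and is not a separate check or an adjustment for sex. Cdkn2a was too scarce to test. Coordinates are from GENCODE M21 and RefSeq on GRCm38.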

Additional observations from a re-analysis of the deposited data

How the results depend on the processing

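None of the 35 genes passed in any of the 14 alternatives, and the lowest adjusted p was 0.116, for Ccnd3 without both replicates numbered 1. The number of all genes called moved from 129 to 211 with no low-count filter, 313 with DESeq2, 282 with the replicate block, 459 without both replicates numbered 1, 20 without wild-type replicates 2 and 3, and 37 with a sex term. Leaving out each library gave 36 to 388, the highest without wild-type replicate 1. The regulator count moved from 0 to 1 (Cdkn1a) with a minimum of 1 CPM in 3 samples, with DESeq2, with the replicate block and without both replicates numbered 1, and ranged from 0 to 1 with each library left out. Over all 14 alternatives the adjusted p of Cdkn1a ranged from 3.4e-08 to 0.481. Same-numbered libraries deviated together with correlations of 0.59, 0.31 and 0.034, and only knockout replicate 1 correlated best with its own number, so the numbers are not shown to pair the samples. Under the replicate block the medians were -0.073 for S phase and -0.038 for mitotic genes.

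The direction of the log2 fold change held in all alternatives for 8 genes (Mcm5, Pcna, Tyms, Ccne2, Cdk1, Birc5, Ccnd1 and Ccnd2) and turned in at least 1 for the other 27; the cause was not tested. Without wild-type replicates 2 and 3 the mitotic median was 0.17 and the S phase minus mitotic difference of medians -0.15, and the values turned to 0.12 for Mcm2, 0.13 for Mcm3, 0.12 for Mcm4, 0.052 for Mcm7, 0.049 for Rrm1, 0.020 for Ccne1, 0.25 for Top2a, 0.15 for Ccna2, 0.19 for Ccnb1, 0.032 for Ccnb2, 0.16 for Aurka, 0.10 for Plk1, 0.29 for Bub1, 0.17 for Bub1b, 0.12 for Cenpa, 0.35 for Cenpe, 0.32 for Kif11, 0.15 for Kif20a, 0.19 for Tpx2, 0.079 for Cdc20, -0.048 for Ccnd3 and 0.0021 for Ndc80. The sex term, which nearly repeats the fit without wild-type replicate 2, gave -0.015 for E2f1, 0.0069 for Top2a, 0.0067 for Ccna2, 0.049 for Bub1, 0.040 for Cenpe, 0.030 for Kif11 and 0.012 for Tpx2. Without both replicates numbered 1, E2f1 was at -0.049, Mki67 at -0.10, Aurkb at -0.042 and Cenpf at -0.094. E2f1 was at -0.0011 with the 1 CPM minimum and -0.0055 with the replicate block, and Cdc20 at 0.0064 with no filter and 0.0015 with DESeq2. With each library left out in turn, values ran from -0.14 to 0.0098 for Mcm2, -0.15 to 0.047 for Mcm3, -0.082 to 0.071 for Mcm4, -0.11 to 0.016 for Mcm6, -0.16 to 0.018 for Rrm2, -0.081 to 0.11 for E2f1, -0.12 to 0.13 for Mki67, -0.20 to 0.0070 for Top2a, -0.10 to 0.044 for Ccna2, -0.081 to 0.084 for Plk1, -0.19 to 0.049 for Bub1, -0.18 to 0.067 for Cenpe, -0.14 to 0.11 for Cenpf, -0.15 to 0.10 for Kif11, -0.10 to 0.080 for Tpx2 and -0.055 to 0.078 for Cdc20. With 3 samples a group the spread between samples limits these comparisons, and for genes with few counts, such as Ccne1, counting error adds to it.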
